A study of Mus musculus with 2 samples.

Results

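The translation initiation factors (eIFs) and elongation factors (eEFs) were followed through single cells of mouse prostate tumours. The 61 members were the features whose symbol begins with Eif and a digit, or with Eef1 or Eef2, without the Eif2ak kinases and without pseudogenes, out of 28000 features measured. One symbol that the rule caught, Eif2c5, is annotated as a lincRNA, a non-coding gene and not an initiation factor, and it had 0 unique molecular identifiers (UMIs, each marking 1 captured RNA molecule) in every class with enough cells.

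Single-cell RNA-seq (10x Genomics, 3′ v3) was performed on prostate tumour tissue of mice from 2 genotypes, with 1 library each. DoubleTg mice were hHGFtg:H11hMET/+:PBCre4. Their human HGF transgene is active in the whole body, and the human MET transgene is driven by a CAG promoter after Cre, under a probasin promoter, removes a stop cassette in prostate epithelium. TripleTg mice were hHGFtg:H11hMET/+:Ctnnb1 L(Ex3)/+:PBCre4 and also carried the Ctnnb1 allele from which the same Cre removes exon 3, leaving stabilised β-catenin. Both libraries thus shared the HGF and MET transgenes and the Cre, their tumours were labelled prostatic adenocarcinoma (DoubleTg) and prostatic carcinoma (TripleTg), and the labels give no age. With 1 library per genotype, no difference had a replicate check and no test was run. Genotype, animal and library cannot be told apart, and every interval is a 95% interval that covers counting error only.

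Translation of most mRNAs begins when eIF2, loaded with GTP and the initiator tRNA, joins the small ribosomal subunit together with eIF1, eIF1A, eIF3 and eIF5, and when eIF4E on the mRNA cap, the scaffold eIF4G and the helicase eIF4A bring in the mRNA. Elongation then runs on eEF1A, which delivers each aminoacyl-tRNA, on the exchange factors that reload it with GTP, and on eEF2, which moves the ribosome along. The mRNAs of ribosomal proteins, eEF1 subunits, eEF2, eIF4B and some eIF3 subunits are known as TOP mRNAs, which begin with a run of pyrimidines and are controlled together through mTOR. MYC and related factors bind the E-box letters CACGTG.

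Promoter sequences are shown to give these letters in place for some of the members described below. A window from 250 bases before to 50 bases after the start site was available for 47 of the 61 members (RefSeq, GRCm38.p6). CACGTG, which reads the same on both strands, was in the window of 12 of these 47 members (25.5%), of 2187 of 27025 genes in all (8.09%) and of 6 of 64 ribosomal protein genes (9.38%). The members were Eef2, Eef2k, Eif1b, Eif3a, Eif3f, Eif3k, Eif4a1, Eif4e, Eif4g1, Eif4h, Eif5a and Eif5a2. The 6 windows below are 30 bases each, 5′ to 3′ on the strand of the gene, with the matched letters in capitals. They are for Eif4a1, the RNA helicase of cap-dependent initiation (chr11:69672595-69672624, minus strand, the box beginning 189 bases before the start site), Eif4g1, the eIF4F scaffold (chr16:20672661-20672690, plus, 54 bases), Eif5a, which helps ribosomes past stretches that stall (chr11:69921443-69921472, minus, 74 bases), Eif3f (chr7:108934335-108934364, plus, 68 bases), Eef2 (chr10:81176576-81176605, plus, 43 bases) and Eif1b (chr9:120492570-120492599, plus, 24 bases).
Eif4a1: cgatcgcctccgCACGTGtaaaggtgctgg
Eif4g1: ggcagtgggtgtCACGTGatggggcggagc
Eif5a: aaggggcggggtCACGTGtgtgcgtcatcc
Eif3f: caagatatgattCACGTGgtataaatttag
Eef2: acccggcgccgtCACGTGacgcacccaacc
Eif1b: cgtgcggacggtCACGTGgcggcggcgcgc

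A run of at least 5 pyrimidines beginning with C at the annotated start site, the form of a TOP mRNA, was in 3 of the 47 members (6.38%), 14 of 64 ribosomal protein genes (21.9%) and 3.01% of all genes. Eif3f had a run of 11 bases (chr7:108934403-108934432, plus strand), and so did Eif2s3x, which encodes the γ subunit of eIF2 (chrX:94212634-94212663, minus strand). The third was the non-coding Eif2c5, which is no translation factor. The capitals mark the run, and these matches depend on where the start site is annotated. As ribosomal protein mRNAs are known as TOP mRNAs, the 21.9% found among them shows that this scan misses many.
Eif3f: gttctaggctctCTCTCTTTCTCggcaaga
Eif2s3x: ccgagcattttcCTTTTCTCTCCgagcaag

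Of 12072 DoubleTg cells 10598 passed the limits on genes and mitochondrial UMIs, and all 9492 TripleTg cells did, at median depths of 16761 and 20097 UMIs. Cells were thinned to 5000 UMIs each, so that a level, given in CPM (the UMIs of a gene per 1e+06 UMIs of its class), is a share of equal depth and not an absolute amount; 2171 DoubleTg and 1699 TripleTg cells below that depth were left out. Luminal-like cells numbered 4795 in DoubleTg (10 clusters) and 4637 in TripleTg (9 clusters), and basal-like cells 1742 and 1201. Summed basal markers stood at 298 CPM in DoubleTg and 214 CPM in TripleTg luminal-like cells, and at 14717 and 5226 CPM in basal-like cells. Summed luminal markers stood at 19731 and 17943 CPM in luminal-like cells, and at 7232 and 6966 CPM in basal-like cells. TripleTg basal-like cells thus held more luminal than basal marker UMIs, unlike the DoubleTg ones, so their name is less certain and the basal-like comparison is between classes whose markers differ. Secretory genes of the seminal vesicle differed between the libraries in luminal-like, basal-like, fibroblast-like, endothelial-like and macrophage-like cells, the classes compared below. In all, 7 of them summed to 99.9 CPM in DoubleTg and 1473 CPM in TripleTg luminal-like cells. They summed to 161 and 3299 CPM in basal-like cells and to 192 and 3176 CPM in macrophage-like cells. The libraries shared 29 of the kept cell barcodes.

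In luminal-like cells the members together took 2.18% of UMIs in DoubleTg (2.18 to 2.19) and 2.58% in TripleTg (2.57 to 2.58). The eEFs accounted for 1.06% and 1.31% and the eIFs for 1.12% and 1.27%. The single gene Eef1a1, which encodes the major form of eEF1A, supplied 31.7% of member UMIs in DoubleTg and 29.9% in TripleTg. Ribosomal protein genes took 22.7% and 30.0% of UMIs in the same cells. Single members ran from 0 CPM to the 6931 CPM of Eef1a1 in DoubleTg and to its 7711 CPM in TripleTg, and 11 and 12 members lay under 20 CPM. Eef1a2, Eif2c5 and Eif4e1b had 0 UMIs in luminal-like cells of both libraries, and Eif4ebp3 had none in DoubleTg. A 3′ UMI counts a molecule once whatever its length, so these levels were not divided by length.

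The first comparison asked which factors differed between the genotypes in luminal-like cells, where the Cre acts. Members past 1.5-fold were few: of 51 members with at least 20 CPM in either library, 6 were higher and 5 lower in TripleTg, where 17.5% and 21.6% of 5405 features were past the same fold. The members higher were Eif2s2, Eef1b2, Eef1g, Eif2b4, Eif3e and Eif4e2, and those lower were Eif4ebp1, Eif1b, Eif2d, Eif4a2 and Eif3j1. Eif2b4, Eif1b and Eif2d reached 20 CPM only in the library where they were higher, so their entry into the count was not independent of their difference. The median log2 ratio of CPM, TripleTg over DoubleTg, was 0.08 for the members and -0.04 for all features. With ribosomal protein and mitochondrial genes left out of the totals, which moved the median of all features to 0.11, 12 members were higher and 5 lower, against 22.7% and 17.7% of features.

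Of the 5 tested eEF1 genes, Eef1b2 and Eef1g were past the fold on the higher side. Eef1b2 encodes eEF1Bα, which reloads eEF1A with GTP. It stood at 1268 CPM in DoubleTg and 2458 CPM in TripleTg luminal-like cells, a log2 ratio of 0.96 (95% counting interval 0.94 to 0.98). Over clusters it ranged from 932 to 1574 CPM in DoubleTg and from 2024 to 2854 CPM in TripleTg, with no overlap. Eef1g, which anchors the same complex, stood at 500.4 and 940.0 CPM (0.91, 0.88 to 0.94), and its clusters ran from 366 to 693 CPM and from 701 to 1153 CPM. Eef1d, another subunit of the exchange complex, was at 366 and 498 CPM (0.44), short of the fold. Eef1a1 itself was at 6931 and 7711 CPM (0.15), and its cluster ranges of 5175 to 7976 CPM and 5970 to 8717 CPM overlapped. Eef1e1, a scaffold protein of the tRNA synthetase complex, was at 32.1 and 27.6 CPM (-0.21). Eef2, the translocase, was level between the libraries, at 1473 and 1460.3 CPM (-0.01, -0.03 to 0.01). Its kinase Eef2k and its methyltransferase Eef2kmt lay under 20 CPM in both libraries and were not tested.

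The eIF2 group had a summed log2 ratio of 0.67, with 1 member past the fold on each side. Eif2s2 encodes eIF2β, the subunit that contacts eIF5 and eIF2B. It stood at 376 CPM in DoubleTg and 773 CPM in TripleTg (1.04, 1.001 to 1.07), and was found in 81.4% and 94.2% of cells at equal depth. Over all epithelial-like cells its ratio was 0.43, short of the fold. Its cluster ranges of 269 to 603 CPM and 529 to 1571 CPM overlapped, and the highest value lay in TripleTg cluster 19, which is led by the hair and squamous genes Tchh, Krt73 and Rptn. Eif2s1 (eIF2α) was at 99.1 and 104 CPM (0.07), Eif2s3x at 52.9 and 61.6 CPM (0.22) and Eif2s3y at 98.0 and 106 CPM (0.11). Eif2d, which can place a tRNA without eIF2, was at 24.6 and 10.9 CPM (-1.17, -1.39 to -0.96) and was seen in 11.4% and 5.28% of cells. Among the eIF2B genes, which encode the exchange factor of eIF2, Eif2b4 was at 16.8 and 29.6 CPM (0.82, 0.64 to 0.997), and the 3 others tested lay between -0.04 and 0.28. In hMETtg-positive epithelial-like cells Eif2b4 was at 0.55, short of the fold.

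The 13 tested eIF3 genes, whose products make up the largest initiation factor, split by subunit. Eif3e was at 227 and 371 CPM (0.71, 0.66 to 0.76), but at 0.52 over all epithelial-like cells and 0.53 in hMETtg-positive ones, short of the fold. Just short of the fold stood Eif3f at 664 and 992 CPM (0.58), Eif3l at 92.0 and 137 CPM (0.57) and Eif3h at 401 and 568 CPM (0.50). The clusters of Eif3f did not overlap, at 367 to 794 CPM in DoubleTg and 889 to 1029 CPM in TripleTg. The 8 genes of the PCI and MPN octamer (Eif3a, c, e, f, h, k, l and m) had a median ratio of 0.37, and the 5 others tested (Eif3b, d, g, i and j1) a median of 0.01. Eif3j1, a loosely bound subunit, was at 200.1 and 118 CPM (-0.77, -0.83 to -0.70).

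Of the mRNA recruitment factors, Eif4a1, which the study itself follows, was at 750.1 CPM in DoubleTg and 669 CPM in TripleTg luminal-like cells (-0.17, -0.20 to -0.13). Its clusters ran from 463 to 1003 CPM and from 535 to 798 CPM and overlapped, and it was detected in 95.4% and 94.95% of cells. Leaving out each of the 19 clusters in turn gave ratios from -0.23 to -0.13. Its paralog Eif4a2 was at 187 and 107 CPM (-0.81, -0.88 to -0.74), so that Eif4a1 exceeded Eif4a2 by 4.01 times in DoubleTg and by 6.26 times in TripleTg. The near-identical sequence of these paralogs can split reads, and so can those of Eif1 and Eif1b, and the gene Rfc4 overlaps Eif4a2 on the other strand. Eif4b, a helper of the helicase, was at 144 and 197 CPM (0.45). The eIF4G genes lay between -0.26 (Eif4g1) and 0.12 (Eif4g2).

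The eIF4E inhibitor Eif4ebp1 had the lowest ratio of the tested members. It stood at 199 CPM in DoubleTg and 79.6 CPM in TripleTg (-1.32, -1.40 to -1.24), and was found in 54.5% and 30.2% of cells. Its clusters ran from 110 to 427 CPM in DoubleTg, the highest being cluster 11, and from 73.5 to 104 CPM in TripleTg, so that they did not overlap. Eif4e, the cap-binding protein, was at 143 and 129 CPM (-0.15), and the summed UMIs of Eif4ebp1 were 1.39 times those of Eif4e in DoubleTg and 0.618 times in TripleTg. Eif4ebp2 was at 30.5 and 21.3 CPM (-0.52) and Eif4e2, a cap-binding protein that represses translation, at 89.1 and 140 CPM (0.65, 0.57 to 0.73), but at 0.56 in hMETtg-positive epithelial-like cells, short of the fold.

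Eif1, which guards the choice of the start codon, was at 2422 and 2731 CPM (0.17), while its paralog Eif1b was at 35.0 and 14.97 CPM (-1.23, -1.41 to -1.05). Eif5a was at 673 and 899.8 CPM (0.42), Eif6, which keeps free large subunits apart, at 370.2 and 439 CPM (0.25), and Eif5b, which joins the subunits, at 312 and 249 CPM (-0.33). Of the 51 tested members, 3 (Eef1b2, Eef1g and Eif3f) were higher in every TripleTg luminal-like cluster than in any DoubleTg one and 1 (Eif4ebp1) was lower. Of 5405 features 5.53% and 4.74% did so, so these counts do not stand apart from features at large. The clusters of 1 library are not replicates.

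On GRCm38 these genes lie apart. Eef1b2 is at chr1:63176825-63180486, Eif2s2 at chr2:154871410-154892935, Eif3f at chr7:108934417-108942951, Eif4ebp1 at chr8:27260329-27276674, Eif4a1 at chr11:69666936-69672423, Eif4a2 at chr16:23107444-23114136 and Eef1g at chr19:8967041-8978479, all protein-coding gene spans. Exons of another coding gene overlap some members on the other strand (Ndufs1 with Eef1b2, Rassf5 with Eif2d, Spg11 with Eif3j1, Snx17 with Eif2b4) and Naprt overlaps Eef1d on the same strand, so their UMIs are less certain.

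**Figure D1:**
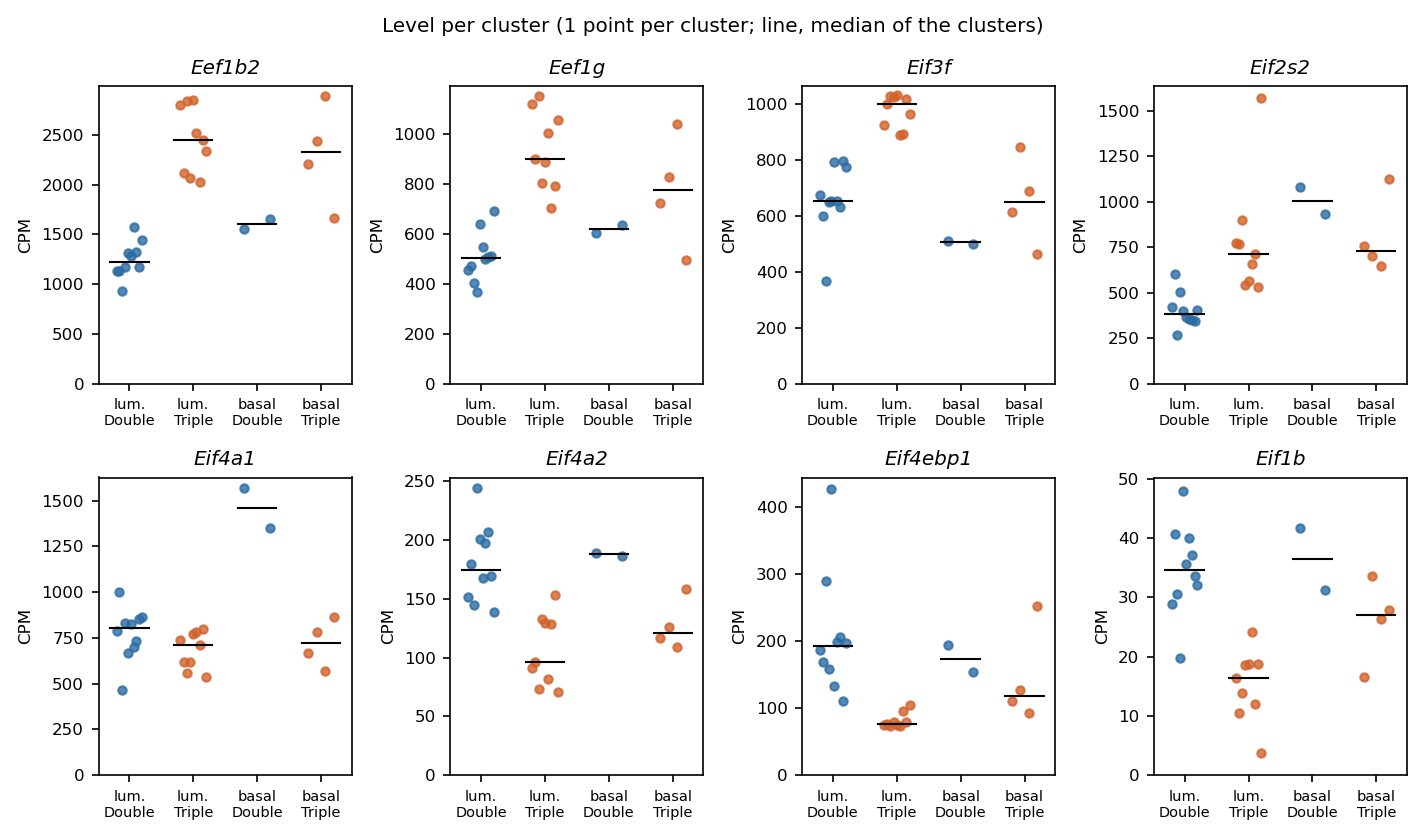
Level in CPM of 8 members in each luminal-like cluster (10 DoubleTg, 9 TripleTg) and basal-like cluster (2 and 4 with at least 50 cells at depth). Each point is 1 cluster and each line the median of its clusters; sideways position within a group has no meaning, and the vertical axes differ. Eef1b2, Eef1g and Eif3f (higher in TripleTg) and Eif4ebp1 (lower) separate the luminal-like clusters of the libraries, as 5.53% and 4.74% of all features do. The basal-like clusters are too few to read in this way.

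In basal-like cells most members past the fold were lower in TripleTg. Of 49 tested, 1 was higher in TripleTg (Eef1b2) and 17 were lower, where 21.8% and 24.4% of 5444 features were past the fold. Their median log2 ratio was -0.48, that of all features -0.08. The whole set nevertheless took 2.61% of UMIs in DoubleTg and 2.50% in TripleTg, with the eEFs at 0.959% and 1.27% and the eIFs at 1.65% and 1.23%. Without ribosomal protein and mitochondrial genes in the totals 3 members were higher and 14 lower, against 25.9% and 21.4% of features.

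Eif4a1 had the highest DoubleTg level of the members past the fold on the lower side. It stood at 1458 CPM in DoubleTg and 691 CPM in TripleTg basal-like cells (-1.08, -1.13 to -1.03). The DoubleTg clusters were at 1352 and 1571 CPM and the TripleTg clusters between 566 and 864 CPM. DoubleTg basal-like cells held the highest Eif4a1 level of all 17 classes, and in TripleTg the basal-like and luminal-like levels, 691 and 669 CPM, were close. Eif4a2 (188 and 120 CPM, -0.65), Eif4a3 of the exon junction complex (141 and 88.1 CPM, -0.67) and Eif4h (215 and 143 CPM, -0.59) were lower with it, while Eif4b was at 101 and 109 CPM (0.11). The scaffold Eif4g1 was at 239 and 144 CPM (-0.73).

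In the group of eIF5, eIF5A, eIF5B and eIF6, Eif5a was at 1206 and 759 CPM (-0.67), Eif6 at 949 and 549 CPM (-0.79) and Eif5b at 425 and 277 CPM (-0.62). Eif5, which triggers GTP hydrolysis on eIF2, was at 678 and 548 CPM (-0.31). Eif2s1 was at 203 and 104 CPM (-0.97, -1.10 to -0.84) and Eif2b3, which passed the limit of 20 CPM through DoubleTg alone, at 39.4 and 18.3 CPM (-1.10). Eif1a was at 243 and 145 CPM (-0.75) and Eif1ad at 101 and 59.0 CPM (-0.78). Eif2s2, higher in TripleTg luminal-like cells, was at 1004 and 729 CPM here (-0.46), short of the fold.

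The eIF3 genes differed most by module in this class. Eif3g (269 and 126 CPM, -1.10), Eif3j1 (251 and 121 CPM, -1.06), Eif3d (184 and 94.6 CPM, -0.96) and Eif3b (185 and 104 CPM, -0.82) were past the fold and Eif3i was not (231 and 269 CPM, 0.22). The octamer genes had a median of 0.12, from -0.56 (Eif3a) to 0.57 (Eif3k, 284 and 422 CPM). Among the eEF1 genes, Eef1b2 was at 1606 and 2426 CPM (0.60, 0.56 to 0.63), Eef1a1 at 5837 and 7745 CPM (0.41) and Eef1g at 619 and 822 CPM (0.41), whereas Eef1e1 had the lowest ratio of the tested members (73.1 and 30.0 CPM, -1.29, -1.53 to -1.05).

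Several other measures moved with the library in basal-like cells. Before thinning, all kept cells of the class had a median of 12730 (DoubleTg) and 21423 UMIs (TripleTg), mitochondrial genes took 2.58% and 3.45% of UMIs, and the immediate early genes Fos, Jun and Egr1 summed to 1103 and 721 CPM. Beside them stand the basal and seminal vesicle marker sums given above, and the part of all these in the result was not tested. The TripleTg class held cluster 9, led by Reg3b, Psca and Upk3a, and cluster 23, led by Mt4, Lgals7 and Sprr1b. Without these 2 clusters 0 members were higher and 16 lower, against 22.9% and 23.4% of features. With each cluster left out in turn Eif4a1 lay between -1.19 and -0.97. Eef1b2 fell short of the fold without DoubleTg cluster 2 or TripleTg cluster 23, Eif6 without DoubleTg cluster 17, Eif5a without TripleTg cluster 7, Eif4a3 without DoubleTg cluster 2 or TripleTg cluster 7, Eif1ad without DoubleTg cluster 2, Eif4h without DoubleTg cluster 2 or TripleTg cluster 23, and Eif5b without TripleTg cluster 23.

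A division by TOP mRNAs, chosen after the values were seen, set 9 members (Eef1a1, Eef1b2, Eef1d, Eef1g, Eef2, Eif3e, Eif3f, Eif3h and Eif4b) beside the others. Of these 9, Eif3f alone had the pyrimidine run printed above. The others lacked it at the annotated start site or had no window, so the division does not rest on that run. In basal-like cells all 9 had ratios above 0, from 0.07 (Eef1d) to 0.60 (Eef1b2), with a median of 0.24, and 8 of the 40 others did, with a median of -0.54. In luminal-like cells the 9 ran from -0.01 (Eef2) to 0.96 (Eef1b2), with a median of 0.50 against 0.00 for the 42 others. The classes without the Cre gave medians of 0.02 and -0.28 (fibroblast-like, 5 of the 9 above 0), 0.25 and -0.35 (endothelial-like, 8 of 9) and 0.24 and 0.13 (macrophage-like, 7 of 9). Eif2s3x, with a pyrimidine run at its start site, was not among the 9 and had 0.22 in luminal-like and 0.15 in basal-like cells. Ribosomal protein genes had a median of 0.48 in luminal-like cells, with 25 of 83 past the fold higher and 1 lower, and of 0.19 in basal-like cells, with 5 higher and 4 lower. Members with CACGTG in the promoter window had medians of -0.09 in luminal-like cells (10 tested, 0 higher and 1 lower) and -0.54 in basal-like cells (0 higher and 4 lower). Members whose window lacks it had 0.07 (32 tested, 4 higher and 3 lower) and -0.46 (29 tested, 1 higher and 10 lower). Beside these counts, 17.5% of all features were past the fold higher and 21.6% lower in luminal-like cells. In basal-like cells 21.8% were higher and 24.4% lower.

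Cells without the Cre were compared next, and they came from the same 2 libraries as the epithelial classes. In 619 DoubleTg and 356 TripleTg fibroblast-like cells, 0 of 47 members were higher and 3 lower, where 16.1% and 13.6% of 5833 features were past the fold. The clearest was Eif4e, at 864 CPM in DoubleTg and 434 CPM in TripleTg (-0.99, -1.11 to -0.88). The clusters overlapped, at 618 and 1057 CPM in DoubleTg and at 251, 292 and 674 CPM in TripleTg. Fibroblast-like cells had the highest Eif4e level in each library, and luminal-like cells stood at 143 and 129 CPM. Eef1e1 (29.4 and 15.7 CPM, -0.90) and Eif3j1 (228 and 135 CPM, -0.75) were the others, the former over 20 CPM in DoubleTg alone.

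In 160 DoubleTg and 161 TripleTg endothelial-like cells, 3 of 51 members were higher (Eif2b4, Eif3i and Eef1b2) and 10 lower (Eif4enif1, Eif3j1, Eif2b5, Eef1e1, Eif3d, Eif4a1, Eif1ad, Eif2s2, Eif3b and Eif2s1). The background was 19.6% higher and 21.2% lower of 6043 features. Eif4a1 was at 1038 and 576 CPM (-0.85, -1.02 to -0.68) and Eif2s2 at 1188 and 708 CPM (-0.75, -0.90 to -0.60). The Eif2b4 value of 0.92 had an interval from -0.19 to 2.12, and Eef1e1 and Eif2b5 rest on 12 UMIs each in TripleTg. These 3 members reached 20 CPM only in the library where they were higher. At 2500 UMIs per cell Eif3d (0.00718) and Eif2b5 (0.0584) were above 0, and of the 13 members only Eif3j1, Eif2s2, Eif4enif1, Eif4a1 and Eif1ad were past the fold under each of the 8 processing alternatives counted for this class. In 264 and 412 macrophage-like cells, 6 of 45 members were higher (Eif1b, Eif3m, Eif4ebp1, Eif4g3, Eif3k and Eif1a) and 0 lower, where 27.6% and 12.4% of 5023 features were past the fold and the median of all features was 0.21. None of these 6 stayed past the fold under every one of the 8 processing alternatives counted for this class, with Eif1b at 0.30 at 2500 UMIs per cell and Eif3k at 0.42 under TMM. Under the TMM scaling of edgeR the 3 classes together went from 9 higher and 13 lower to 5 higher and 20 lower, and under that scaling 16.1% of features were higher and 19.9% lower.

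Side by side, the Eif4a1 log2 ratio was -0.17 in luminal-like, -1.08 in basal-like, -0.52 in fibroblast-like, -0.85 in endothelial-like and -0.30 in macrophage-like cells. That of Eef1b2 was 0.96, 0.60, 0.47, 0.70 and 0.40 in the same order. These comparisons share both libraries and are not independent. In none of the 5 classes was Eif4a1 higher in TripleTg. By qRT-PCR the study reported more Eif4a1 RNA in TripleTg than in DoubleTg tumour samples. That measure was taken on bulk RNA relative to Ppia and not as a share of UMIs per class, so the measures are not alike.

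**Figure D2:**
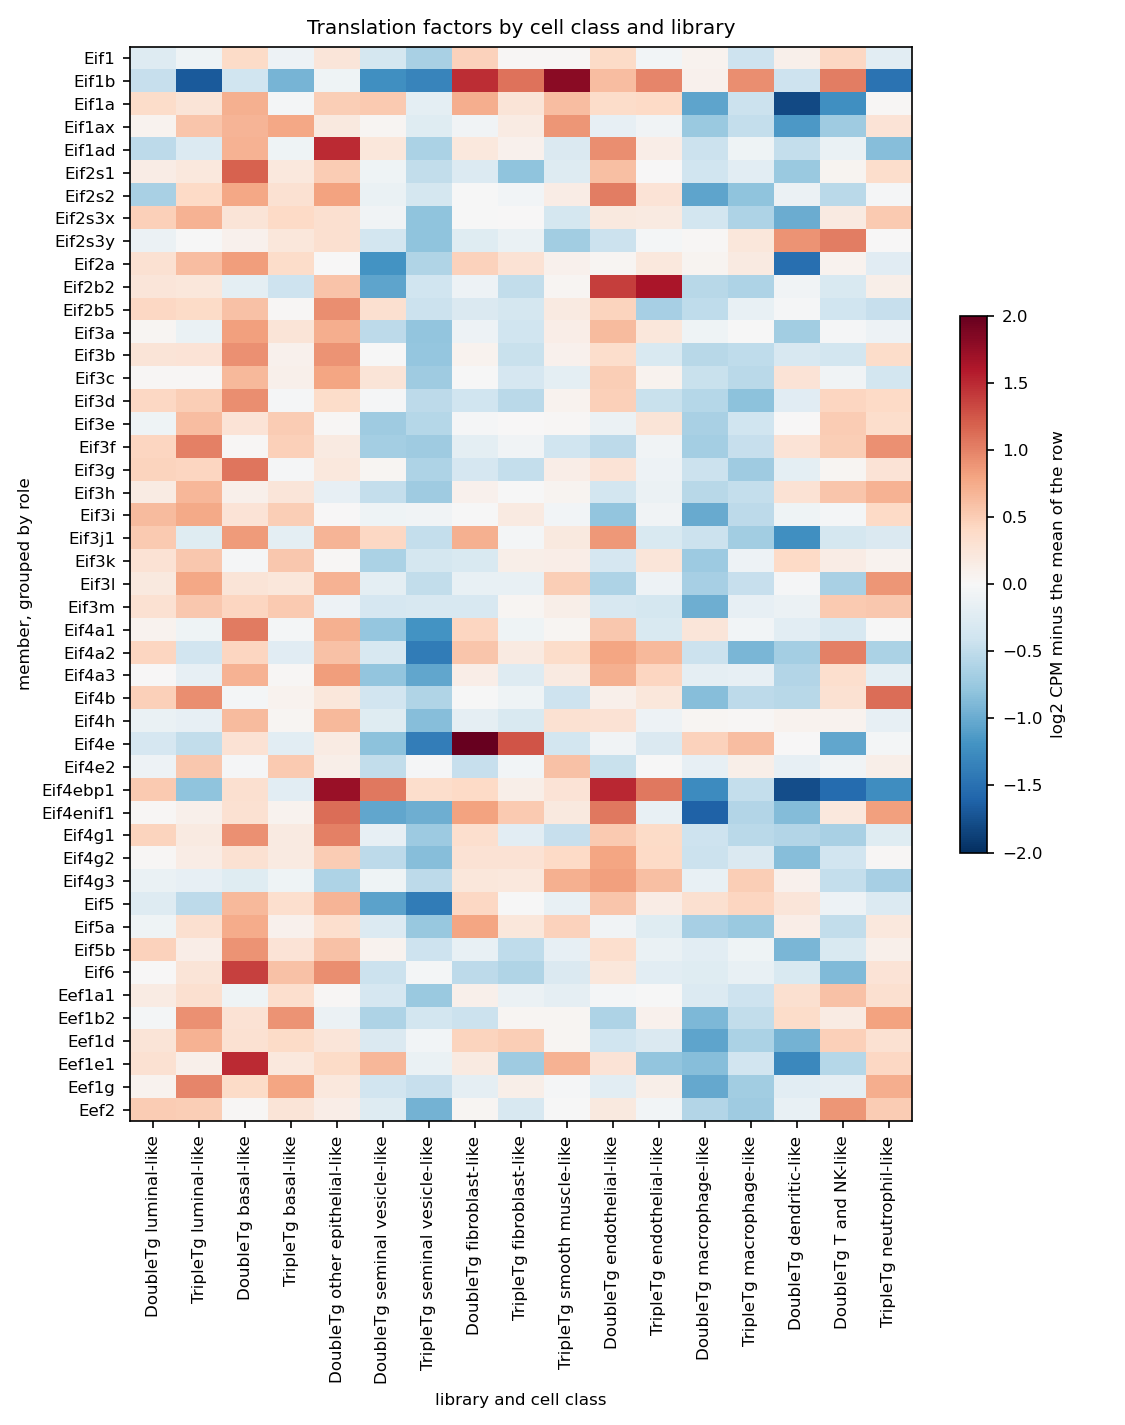
Level of 47 members in 17 classes (9 DoubleTg, 8 TripleTg), as log2 CPM minus the mean of that member over the classes, from low (blue) to high (red), grouped by role. Eif4e is highest in fibroblast-like cells, Eif4ebp1 in DoubleTg other epithelial-like cells (456 CPM), Eif1b in TripleTg smooth muscle-like cells (167 CPM), and the elongation factors Eef1a1 and Eef2 in DoubleTg T and NK-like cells.

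Across the classes the members varied by very different amounts. Eif1 (1863 to 3988 CPM) and Eif4e2 (68.2 to 143 CPM) spanned 2.1 times between the lowest and the highest of the 17 classes. Eif4e spanned 12.5 times, from 69.4 CPM in TripleTg seminal vesicle-like cells to 864 CPM in DoubleTg fibroblast-like cells. The lowest values of Eif1 and Eif4e2 were also in seminal vesicle-like cells, where 20 genes took 45.3% (DoubleTg) and 50.2% (TripleTg) of UMIs. Outside these cells the lowest Eif4e level was 88.3 CPM, in DoubleTg T and NK-like cells. Eif4ebp1 spanned 11.3 times, from 40.4 CPM in DoubleTg dendritic-like cells to 456 CPM in DoubleTg other epithelial-like cells, and Eif1b 11.2 times, from 14.97 CPM in TripleTg luminal-like cells to 167 CPM in TripleTg smooth muscle-like cells. Eif2b2 was highest in endothelial-like cells of both libraries (98.8 CPM in DoubleTg and 118 CPM in TripleTg), and the next highest class stood at 56.3 CPM. Epithelial markers summed to 2033 CPM in DoubleTg and 3151 CPM in TripleTg fibroblast-like cells, a measure of RNA from other cells in the droplets, so low levels in small classes are uncertain. TripleTg neutrophil-like cells numbered 152 with a median of 2865.5 UMIs, of which the 58 with at least 5000 UMIs were used. These had levels near those of luminal-like cells of that library (Eef1b2 2276 CPM, Eif3h 576 CPM).

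Cycling was examined within each library, where a cell was taken as cycling if 3 or more genes of a list of 15 for proliferation were detected at equal depth. In DoubleTg, 56 luminal-like cells were cycling and 4739 were not. Of 52 members, 5 were higher in cycling cells (Eif2b1, Eif1ad, Eif3l, Eif4e2 and Eif4g1) and 1 lower (Eif4enif1, on 2 UMIs and over 20 CPM in the other cells alone), where 24.9% and 11.7% of 5719 features were past the fold. The counting interval of each of these 6 reached inside the fold, with lower ends from 0.11 (Eif2b1) to 0.28 (Eif3l) for the 5 higher ones and an upper end of 0.11 for Eif4enif1, so none of them was past it beyond counting error. In TripleTg, with 333 cycling and 4304 other cells, 5 of 52 were higher (Eif2d, Eif1b, Eef1e1, Eif2b1 and Eif2b3) and 0 lower, where 13.3% and 6.56% of 5199 features were. Eif2d (21.02 and 10.1 CPM), Eif1b (23.4 and 14.3 CPM) and Eif2b3 (23.4 and 15.3 CPM) reached 20 CPM in cycling cells alone, and the lower ends of all 5 intervals, from 0.10 (Eif2b3) to 0.49 (Eif2d), lay inside the fold. Under TMM scaling, which moved the median of all features from 0.19 to -0.12 in DoubleTg and from 0.06 to -0.08 in TripleTg, 2 were higher and 5 lower in DoubleTg, against 13.97% and 22.0% of features. In TripleTg 2 were then higher and 0 lower, against 8.83% and 10.7%. The member medians were 0.14 and 0.12.

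Most member differences with cycling were small. Eif5a had log2 ratios of 0.47 in DoubleTg and 0.49 in TripleTg, Eif1ax 0.54 and 0.51, and Eif3d 0.54 and 0.45. Eif4a1 was at 904 CPM in cycling and 748 CPM in other DoubleTg cells (0.27), and at 780.2 and 660.4 CPM in TripleTg (0.24). Eif4a2 went the other way, with -0.43 and -0.46. Eef1a1 was at -0.06 and -0.09 and Eef1b2 at 0.14 and 0.03. Clusters led by mitosis genes held the cycling cells most densely, at 62.7% of DoubleTg cluster 24 and 87.6% of TripleTg cluster 13.

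**Figure D3:**
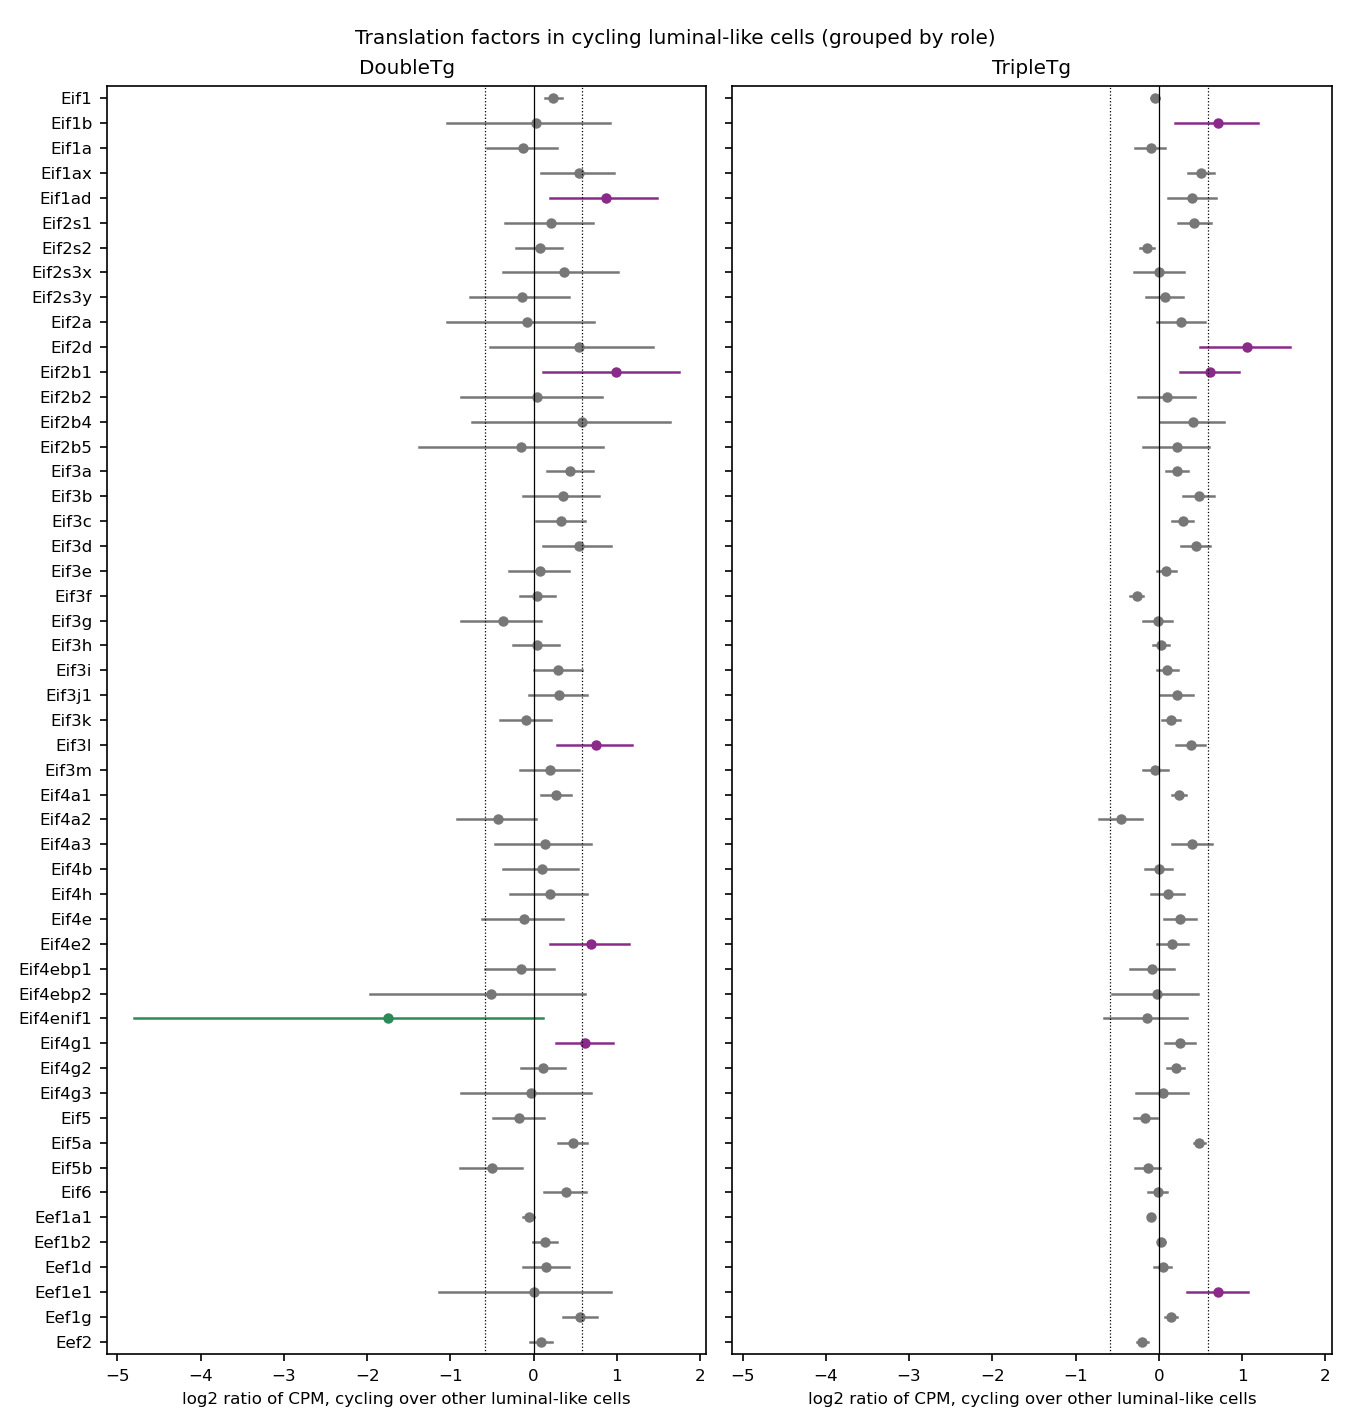
Log2 ratio of CPM, cycling over other luminal-like cells, for the members tested in both libraries, grouped by role, in DoubleTg (56 cycling cells, left) and TripleTg (333 cycling cells, right). Points are ratios at 5000 UMIs per cell, bars 95% counting intervals, dotted lines 1.5-fold, and purple and green mark members past it; intervals are wider on the left, where fewer cells were cycling.

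Across clusters some members followed the ribosomal protein share and others did not. The median r over 55 members was 0.17 in DoubleTg and 0.60 in TripleTg, and 12 and 7 of them were below 0. Over 24 clusters per library, 11 of 55 members (Eef1b2, Eif3m, Eif3k, Eif3f, Eef1a1, Eif3e, Eif3h, Eef1d, Eif3d, Eif2s3y and Eef1g) had a Pearson r over 0.5 with that share in both libraries, which 1.72% of 8676 features other than ribosomal protein genes had. Eef1b2 gave r of 0.88 in DoubleTg and 0.98 in TripleTg, Eef1a1 0.83 and 0.97, and Eif3e 0.85 and 0.92. Eif4a1 gave 0.15 and 0.56. Among the lowest were Eif4g3 (-0.39 and -0.24), Eif4ebp1 (-0.31 and -0.36), Eef2k (-0.27 and -0.30) and, in TripleTg, Eif1b (0.21 and -0.42). Clusters of 1 library share depth, free RNA and the same total, in which the ribosomal protein genes make up between 8.40% and 34.3%, so these r are a description only. Over luminal-like clusters alone (10 and 9), r for Eef1b2 was 0.86 and 0.99 and for Eif4a1 0.50 and 0.14, and the median over the members went from 0.17 to 0.51 in DoubleTg and from 0.60 to 0.19 in TripleTg. Of the 11 members, Eef1b2, Eif3k, Eef1a1, Eif3e and Eef1g then stayed over 0.5 in both libraries. The others did not: Eif3m was at 0.45 in DoubleTg, and in TripleTg Eif3f was at 0.25, Eif3h 0.31, Eef1d 0.42, Eif3d 0.06 and Eif2s3y -0.65.

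**Figure D4:**
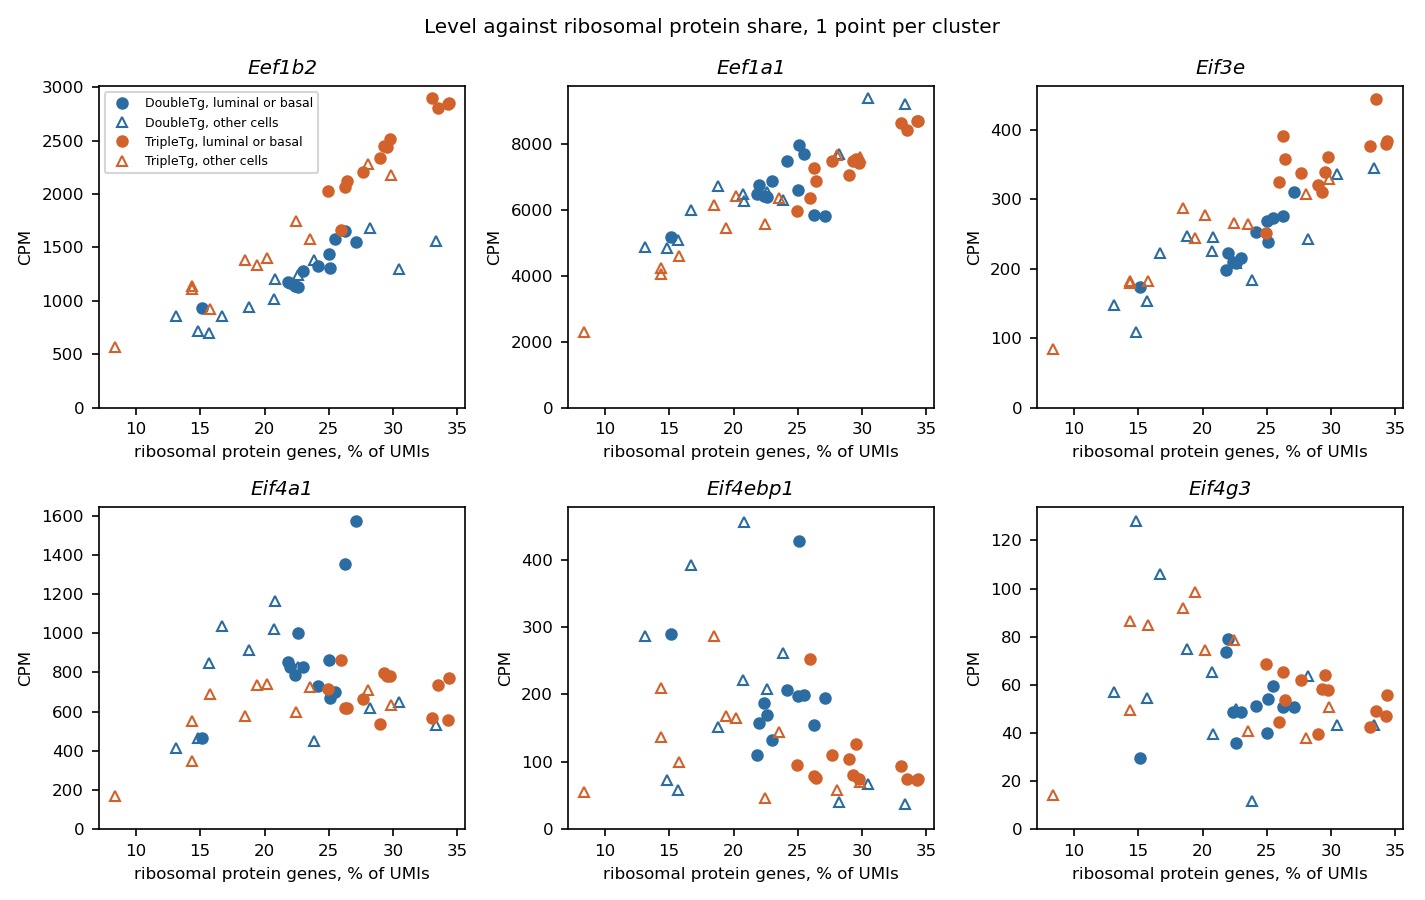
Level in CPM of 6 members against the percent of UMIs from ribosomal protein genes, 1 point per cluster, filled for luminal-like and basal-like clusters and open for other cells, blue for DoubleTg and orange for TripleTg. Eef1b2, Eef1a1 and Eif3e climb with the ribosomal protein share in both libraries, Eif4ebp1 and Eif4g3 do not, and the 2 DoubleTg basal-like clusters stand out for Eif4a1 (1352 and 1571 CPM).

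Of 39 other translation genes, 30 were tested in luminal-like cells, with 4 higher and 4 lower in TripleTg, and 28 in basal-like cells, with 2 higher and 6 lower. The shares of all features past the fold were 17.5% and 21.6% in the first class and 21.8% and 24.4% in the second, so these counts do not stand apart from features at large, and the genes are given as values. Higher in luminal-like cells were the reinitiation factor Mcts1 (26.0 and 49.7 CPM, 0.94), the kinase Mtor (12.5 and 21.1 CPM, 0.76), Cyfip1 (0.94) and Paip2 (0.62). Lower were the helicase Ddx3x (-0.74), the eIF2α kinase Eif2ak3 (25.4 and 11.4 CPM, -1.16), the stress factor Ddit3 (37.9 and 19.8 CPM, -0.94) and the eIF4A inhibitor Pdcd4 (78.8 and 41.2 CPM, -0.94). Mtor, Eif2ak3 and Ddit3 reached 20 CPM only in the library where they were higher. Their entry into the count was thus not independent of their difference. In basal-like cells Mcts1 (1.01) and Paip2 (0.75) were higher, and Pabpc4 (-0.82), Ppp1r15a (-0.67), Ddit3 (-1.04), Abce1 (-0.61), Larp1 (-0.69) and Atf4 (594 and 335 CPM, -0.83) lower.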

How the data were processed

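The deposited matrices hold raw UMI counts per feature and cell, which the authors made with Cell Ranger (6.0.2 per the labels, 6.1.1 in the DoubleTg header) on mm10 with the transgenes added; whether counting used strand is not given in the sources used here. Members and lists were chosen with earlier results of these data known, and the thresholds for naming clusters were set after the clusters had been seen.

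Kept cells had more than 200 but fewer than 7000 genes and a mitochondrial share below 15%, limits that every deposited TripleTg cell already met. Each library was clustered alone (scanpy 1.11.5, Leiden resolution 1, leidenalg 0.10.2), clusters were named "-like" from fixed markers, and rebuilt names may differ from the study's. Scrublet marked 265 DoubleTg cells (2.50%) and 0 TripleTg cells, so it gave no doublet check in TripleTg and no cells were removed by it. Why it marked none there was not tested. UMIs were thinned to 5000 per cell, summed per class and given as CPM. Features with at least 20 CPM in either group were compared at 1.5-fold, with no statistical test. Intervals are exact Poisson, Clopper-Pearson or conditional binomial, and cover counting error only. Every member may be named, with full values for Eif4a1, the 8 highest and 8 lowest ratios and leading members of each role, shortened where a value adds nothing. Steps were tested on simulated data. The alternatives included no thinning, 2500 or 10000 UMIs, edgeR TMM scaling and no low-value filter.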

Additional observations from a re-analysis of the deposited data

Results flagged for a closer look

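These 4 members were past 1.5-fold in opposite directions in 2 cell classes, which is why they are listed here; the differences between the classes were not tested, and each class is 1 library per genotype. Eif2s2, the eIF2β gene, had a log2 ratio of TripleTg over DoubleTg of 1.04 in luminal-like cells and -0.75 in endothelial-like cells. Eif4ebp1, the eIF4E inhibitor, had 0.78 in macrophage-like cells and -1.32 in luminal-like cells. Eif1b had 0.85 in macrophage-like cells and -1.23 in luminal-like cells. Eif1a had 0.63 in macrophage-like cells and -0.75 in basal-like cells. One side of each pair fell short of the fold under at least 1 alternative. The lowest values were 0.43 for Eif2s2 in luminal-like cells, and 0.57 for Eif4ebp1, 0.30 for Eif1b and 0.42 for Eif1a in macrophage-like cells. In macrophage-like cells the median of all features was 0.21.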

How the results depend on the processing

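No paired analysis was possible because each genotype has 1 library and no test was run. Of 688 member values under the alternatives, 612 moved by less than their counting interval, 72 moved further without a change of sign and 4 changed sign. Those 4 were Eif3d (0.00718) and Eif2b5 (0.0584) in endothelial-like cells at 2500 UMIs, and Eif4enif1 in cycling DoubleTg cells with no thinning (0.0441) and at 10000 UMIs (0.49). Past the fold under every alternative, apart from those chosen after seeing the data, were 7 of 11 luminal-like members (Eef1b2, Eef1g, Eif1b, Eif2d, Eif3j1, Eif4a2 and Eif4ebp1; Eif2s2 fell short over all epithelial-like cells, at 0.43), 14 of 18 basal-like ones (4 of them, Eif6, Eif5a, Eif4a3 and Eif1ad, fell short when 1 cluster was left out), 2 of 3 fibroblast-like, 5 of 13 endothelial-like, 0 of 6 macrophage-like, 0 of 5 cycling TripleTg and 1 of 6 cycling DoubleTg (Eif2b1). Members past the fold, with the shares of features higher and lower beside them, numbered 17 (22.7% and 17.7%) without ribosomal protein and mitochondrial genes in luminal-like cells and 36 (27.7% and 18.9%) with no filter in the non-epithelial classes. In cycling TripleTg cells they numbered 2 (10.8% and 4.62%) with no thinning, 3 (12.1% and 5.47%) at 10000 UMIs, 2 (8.83% and 10.7%) under TMM and 1 (8.71% and 4.10%) with 2 of 15 proliferation genes. In cycling DoubleTg cells they numbered 3 (18.8% and 4.11%) with no thinning, 10 (32.3% and 15.02%) at 2500 UMIs, 3 (21.8% and 8.65%) at 10000 UMIs and 10 (25.4% and 11.9%) without the cells Scrublet marked; 5 of 15 genes was not run there because 23 cells remained. The member share of luminal-like UMIs in DoubleTg was 2.14% with no thinning, 2.19% at 10000 UMIs, 2.96% without ribosomal protein and mitochondrial genes, 2.29% over all epithelial-like cells, 2.22% in hMETtg-positive ones and 2.18% without the 8% of cells with the highest Scrublet scores. In TripleTg it was 2.61% with no thinning, 3.89% without those genes, 2.45% over all epithelial-like and 2.34% in hMETtg-positive cells. The settings with the highest Scrublet scores, without chosen clusters, with each cluster left out in turn and over luminal-like clusters alone were chosen after seeing the data; their causes were not tested.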

Other observations

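Seminal vesicle-like cells, 88 in DoubleTg and 542 in TripleTg at depth, are not part of the TripleTg over DoubleTg comparisons above because 20 genes took 45.3% and 50.2% of their UMIs. Their levels do enter the description across the 17 classes. The members took 1.62% and 1.31% of UMIs in them. The median log2 ratio of TripleTg over DoubleTg was -0.40 for the 49 members with enough UMIs and -0.43 for all features in the class. Eef2 was at -0.69, Eef2kmt at -1.87 and Eif2b2 at 0.66. DoubleTg T and NK-like cells (333 cells), found in that library only as a named class, had the highest levels of Eef1a1 (9294 CPM) and Eef2 (1919.5 CPM) and the highest ribosomal protein share (32.3% of UMIs).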
